A study of Mus musculus with 2 samples.

Results

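The 10 genes described here were S100a4, S100a6, S100a8, S100a9, S100a10, S100a11, S100a13, Lgals1, Lgals3 and Anxa2. They were taken by symbol from the 27998 genes of the deposited count matrices, and all 10 were found. They were measured in peripheral blood mononuclear cells of female C57Bl/6 mice aged 10 weeks by droplet single-cell RNA sequencing. The mutant library came from mice carrying the V377I and del91 alleles of Mvk (MvkV377I/del91), the gene of mevalonate kinase, an enzyme of isoprenoid and sterol synthesis, and the wildtype library from Mvk+/+ mice. Blood of 3 mice was pooled for each genotype before red cell lysis and sorting of DAPI-negative, Ter119-negative cells, so each genotype is 1 library. Genotype, pool and library preparation therefore cannot be told apart, no p-value is given, and every interval below covers counting error only.

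S100 proteins are small calcium-binding proteins that change the activity of partner proteins inside cells, and some are also released as signals. Galectins bind beta-galactoside sugars on glycoproteins, and annexins bind membrane phospholipids when calcium is present. In blood, S100a8 and S100a9 are known as abundant neutrophil and monocyte products, while S100a4, S100a6, S100a10, Lgals1 and Anxa2 are known from activated and memory lymphocytes.

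All 7 S100 genes lie on chromosome 3, within chr3:90514435-93564643 on GRCm38. Anxa2 lies on chromosome 9, Lgals3 on chromosome 14 and Lgals1 on chromosome 15. S100a4 shares 302 of its 584 exon bases with the overlapping gene Gm42674, which had 0 UMIs in the cells of either library. The last 160 exon bases of S100a4, toward the end that a 3' library reads, are not shared. How reads in the shared bases were counted is not given in the sources used here. The 0 UMIs of Gm42674 therefore do not show that S100a4 was fully counted. Anxa2 overlaps an antisense gene, and reads of near-identical pseudogene copies could change the counts of S100a11 and Lgals1. These 3 genes and S100a4 are less certain than the others.

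The 150 bases before the RefSeq start (GRCm38.p6) are shown for 7 of the members. S100a4, S100a6, S100a11 and Lgals3 are those with a call between the genotypes, Anxa2 rose in all 4 comparisons of memory-like with naive-like cells, and S100a8 and S100a9 carried the contrast in cell type. Sequences run 5' to 3' on the strand of the gene, and capitals mark matches to a TATA motif (TATAAA), an AP-1 motif (TGANTCA) or a GC box (GGGCGG), searched on both strands, so that the capitals of Lgals3 (CCGCCC) are a GC box on the other strand. The motifs do not overlap one another in these windows. The positions are chr3:90603620-90603769 for S100a4, chr3:90612744-90612893 for S100a6, chr3:90668921-90669070 for S100a8, chr3:90695722-90695871 (minus strand) for S100a9, chr3:93520346-93520495 for S100a11, chr14:47373710-47373859 for Lgals3 and chr9:69453533-69453682 for Anxa2.
S100a4: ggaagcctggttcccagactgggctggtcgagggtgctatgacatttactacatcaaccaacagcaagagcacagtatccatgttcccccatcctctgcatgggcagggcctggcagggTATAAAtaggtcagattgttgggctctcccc
S100a6: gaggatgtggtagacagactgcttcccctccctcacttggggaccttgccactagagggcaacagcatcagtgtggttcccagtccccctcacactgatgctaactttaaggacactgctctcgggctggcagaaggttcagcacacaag
S100a8: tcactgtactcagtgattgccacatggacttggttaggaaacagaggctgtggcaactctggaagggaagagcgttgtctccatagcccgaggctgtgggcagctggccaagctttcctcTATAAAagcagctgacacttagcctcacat
S100a9: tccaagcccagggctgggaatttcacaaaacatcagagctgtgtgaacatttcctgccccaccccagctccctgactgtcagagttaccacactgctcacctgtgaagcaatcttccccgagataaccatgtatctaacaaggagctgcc
S100a11: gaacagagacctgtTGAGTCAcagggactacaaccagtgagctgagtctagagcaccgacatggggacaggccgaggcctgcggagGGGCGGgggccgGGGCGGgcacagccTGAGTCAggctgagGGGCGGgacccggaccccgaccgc
Lgals3: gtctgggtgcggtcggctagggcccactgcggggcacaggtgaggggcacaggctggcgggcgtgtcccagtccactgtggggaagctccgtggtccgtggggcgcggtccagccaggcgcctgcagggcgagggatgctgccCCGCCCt
Anxa2: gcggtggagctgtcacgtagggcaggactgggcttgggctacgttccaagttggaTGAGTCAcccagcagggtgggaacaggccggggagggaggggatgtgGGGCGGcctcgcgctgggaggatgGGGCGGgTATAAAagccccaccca
RefSeq promoters were matched for 8 of the 10 members. The TATA motif was found in S100a4, S100a8 and Anxa2, 3 of those 8, against 7.57% of 32851 promoter windows of the same length. The AP-1 motif was found in 2 of the 8, with a pair of matches in S100a11 and a single match in Anxa2, against 4.24% of all windows. The GC box was found in S100a11, Lgals3 and Anxa2, against 28.6% of all windows. The S100a6 and S100a9 windows held none of these letters, which says nothing of which factors bind there.

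A UMI (unique molecular identifier) marks 1 captured RNA molecule. In all, 14513059 UMIs were counted for the mutant and 15385199 for the wildtype. Barcodes with at least 800 UMIs, at least 200 genes and at most 10% mitochondrial UMIs were kept as cells, 4190 mutant and 5225 wildtype, with a median of 1968 UMIs per mutant cell and 2036 per wildtype cell. 28 cell barcodes occurred in both libraries. Cells rich in haemoglobin RNA, 82 mutant and 8 wildtype, were left out of the classes below. The members together gave 22647 UMIs in mutant cells and 33831 in wildtype cells. Cells were put into classes by UMIs of marker genes, none of which is a member, and the name of each class is followed by "-like" since no deposited annotation was used. Levels are counts per 1000000 UMIs of a class (CPM), with exact Poisson 95% intervals for levels and exact conditional intervals for ratios. Free RNA, the background of droplets without a cell, was read from barcodes with at most 20 UMIs, and by erythroid markers it made up 4.76% to 10.4% of mutant and 6.82% to 8.53% of wildtype class totals. Summed erythroid markers were higher in every mutant class, for example 3049.6 CPM in mutant B-like cells against 298 CPM in wildtype B-like cells, and their part in the member ratios was not tested.

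**Figure D1:**
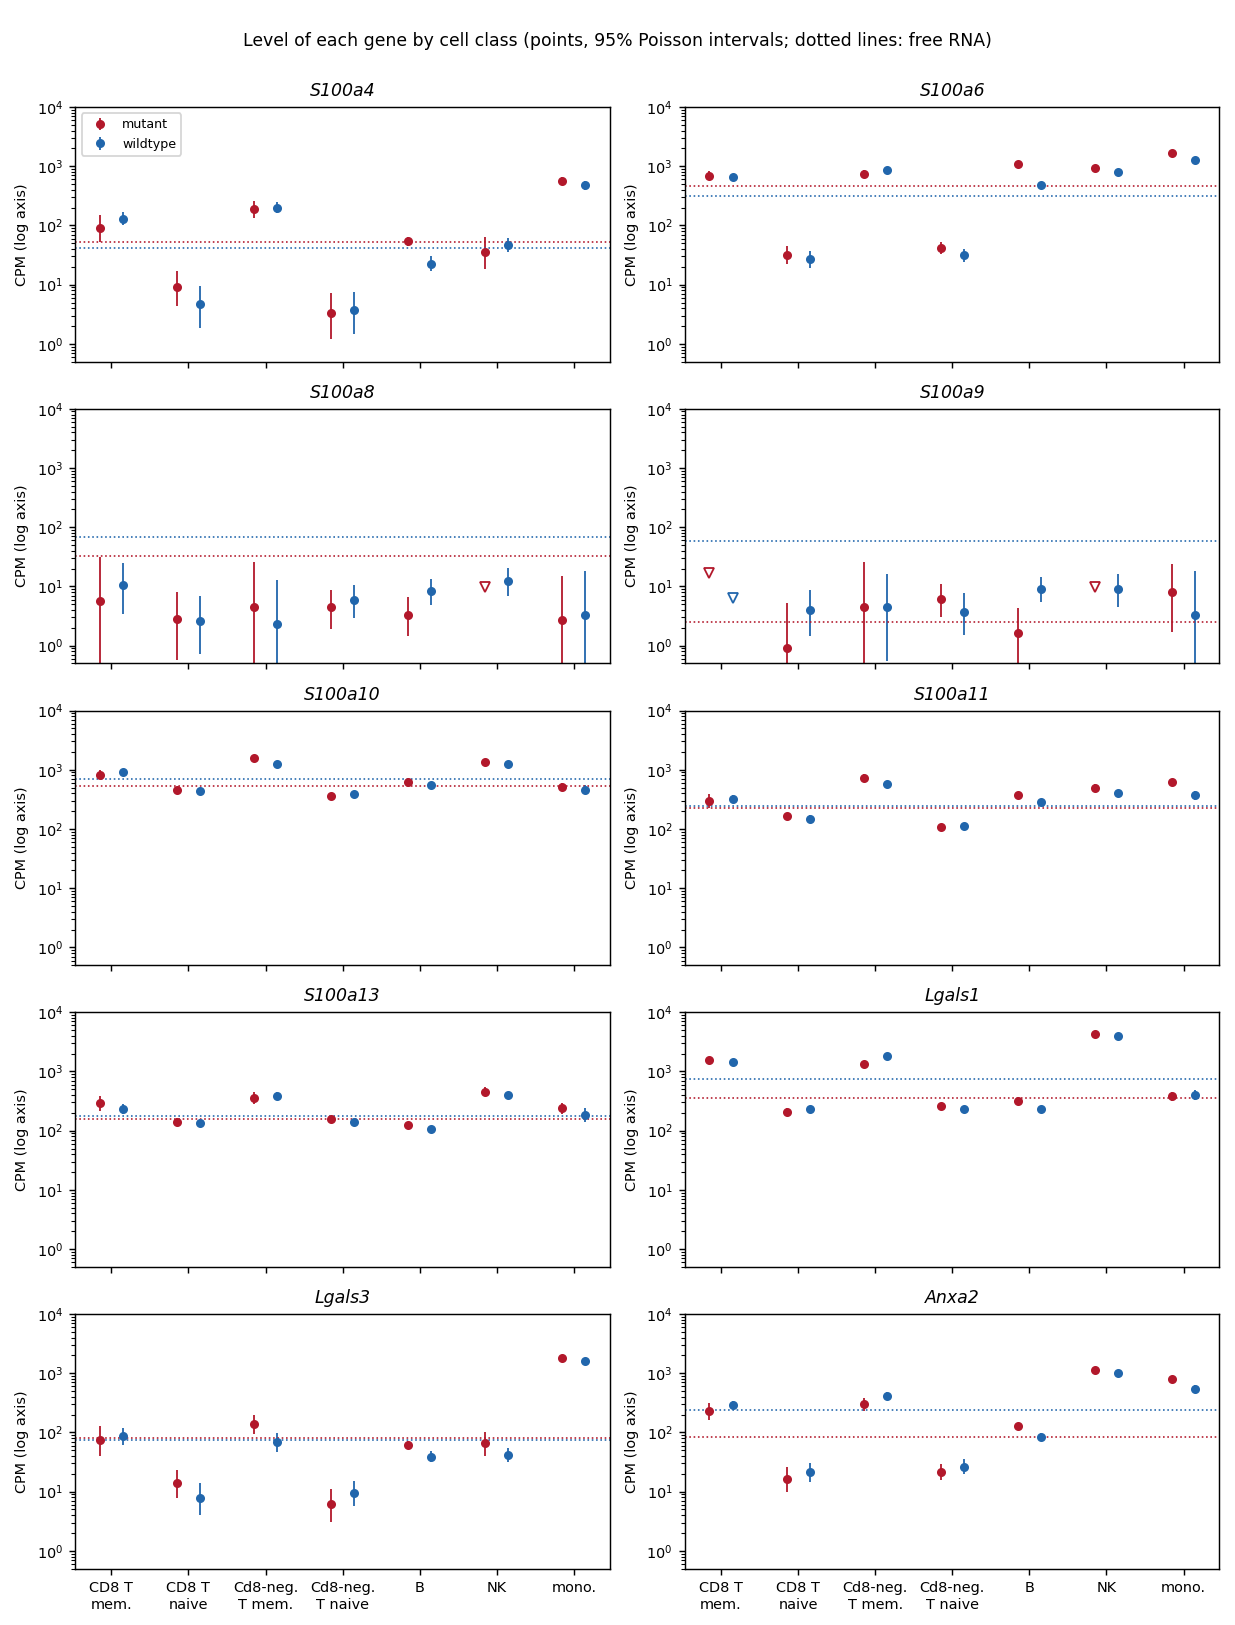
Level of each of the 10 genes in 7 cell classes, in CPM on a log axis, for the mutant (left point of each pair) and the wildtype library. Bars are 95% Poisson intervals, open triangles mark the level that 3 UMIs would give where no UMI was counted, and dotted lines give the level in free RNA. S100a8 and S100a9 stay at or below 12.2 CPM in all 7 classes, while Lgals3 and S100a4 peak in monocyte-like cells and Lgals1 in NK-like cells.

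Each member had its own order of cell classes, and the order was largely shared by the libraries. S100a4 encodes a protein known for binding non-muscle myosin and for its link with cell movement. It was highest in monocyte-like cells, at 570 CPM (interval 496 to 653) in the mutant and 476 CPM in the wildtype, and lowest in naive-like Cd8-negative T cells, at 3.35 CPM in the mutant and 3.72 CPM in the wildtype. In the mutant each class overlapped the next from memory-like Cd8-negative T (187 CPM, 134 to 254) through memory-like CD8 T (90.9 CPM) and B-like (54.1 CPM, 45.2 to 64.2) to NK-like cells (36.3 CPM, 18.1 to 65.0). Memory-like Cd8-negative T cells nevertheless lay clear above B-like and NK-like cells. Lgals3, the galectin with a collagen-like tail, had the same top class, with 1840.3 CPM in mutant and 1601 CPM in wildtype monocyte-like cells. Its lowest level was 6.14 CPM in mutant naive-like Cd8-negative T cells, and 7.94 CPM in wildtype naive-like CD8 T cells. S100a6, calcyclin, was highest in monocyte-like cells as well, at 1692 CPM in the mutant and 1275 CPM in the wildtype, and lowest in naive-like CD8 T cells, at 32.3 CPM in the mutant and 27.1 CPM in the wildtype. These naive-like values were 6.88% of the free RNA level of the mutant library and 8.67% of that of the wildtype library, which is near the share of free RNA in these cells.

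Lgals1, galectin-1, a secreted galectin known for its action on T cells, led in NK-like cells, with 4261 CPM in the mutant and 3902 CPM in the wildtype. Its lowest class, naive-like CD8 T, had 210 CPM in the mutant and 228 CPM in the wildtype. Anxa2, whose protein forms a complex with S100a10 at membranes, was also highest in NK-like cells, at 1119 CPM in the mutant and 1003 CPM in the wildtype, against 16.6 CPM in mutant and 21.2 CPM in wildtype naive-like CD8 T cells. S100a13, known for its part in the release of proteins that lack a signal peptide, was highest in NK-like cells, with 455 CPM in the mutant and 393 CPM in the wildtype, and lowest in B-like cells. S100a10 and S100a11 were highest in memory-like Cd8-negative T cells. S100a10 stood there at 1565 CPM in the mutant and 1272 CPM in the wildtype and spanned a narrow range, with 4.38-fold in the mutant and 3.33-fold in the wildtype from its highest to its lowest class. S100a11, an annexin-binding member of the family, had 726 CPM in the mutant and 570 CPM in the wildtype in that class. S100a4 ranged 170-fold in the mutant and 128-fold in the wildtype, and Lgals3 300-fold in the mutant and 202-fold in the wildtype, each with fewer than 20 UMIs in its lowest class.

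Over the 14 points that 7 classes in 2 libraries give, the levels of S100a4 and Lgals3 on the log2(CPM + 10) scale had a Pearson r of 0.921, those of Lgals1 and S100a13 of 0.934 and those of Lgals1 and S100a10 of 0.908. The points share libraries and free RNA, so these values describe the pattern only. Among 6071 genes with at least 200 UMIs, the genes most like S100a4 were Tmem256, Bcl2a1b, Gapdh, Bcl2a1d and Cd44 (r from 0.954 to 0.941). Those most like Lgals1 were Osbpl3, Klrk1, Klrg1, Tbx21 and Klra7 (r from 0.985 to 0.976), and those most like S100a10 were Ifng, Ei24, Slbp, Ppp1r12a and Adora2a (r from 0.952 to 0.937). Cd44, Klrk1 and Tbx21 are among the markers that set the classes, so their levels over the classes are partly fixed by the classing. For S100a8, whose levels in these classes rest on few UMIs, the closest were Vps4a, Eif2b3, Znhit2, Pus3 and Rbm28, with r no higher than 0.773.

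S100a8 and S100a9 encode the subunits of calprotectin, a zinc- and manganese-binding protein of neutrophils. Most of their UMIs lay in a handful of cells. In the mutant library 2 cells had at least 10 UMIs of the pair, with 70 and 23 UMIs of S100a8 and 34 and 7 UMIs of S100a9. In the wildtype library 10 cells did, with 12 to 141 UMIs of S100a8 and 14 to 103 UMIs of S100a9. These cells held 73.8% of all S100a8 UMIs of mutant cells and 91.0% of those of wildtype cells. For S100a9 the shares were 56.9% in the mutant and 89.3% in the wildtype. Both of the mutant cells and 9 of the 10 wildtype cells met the neutrophil marker rule, and the remaining cell carried markers of 2 lineages. No other cell had more than 3 UMIs of the pair in the mutant, or more than 2 in the wildtype.

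In the neutrophil cells S100a8 stood at 50054 CPM (interval 40399.9 to 61319) in the mutant and 85889 CPM (79992 to 92105) in the wildtype, from 2 and 9 cells. S100a9 stood at 22067 CPM in the mutant and 59369 CPM in the wildtype. With so few cells these levels describe the cells and not the genotypes. The same neutrophil cells had S100a11 at 8073 CPM in the mutant and 9167 CPM in the wildtype. Their S100a6 stood at 3767 CPM in the mutant and 3929 CPM in the wildtype. Each value was above the level of that gene in any of the 7 classes. The mutant S100a6 value rests on 7 UMIs, and its interval (1515 to 7762) overlapped that of mutant monocyte-like cells (1562 to 1829.5). Lgals1 and S100a4 had 0 UMIs in the neutrophil cells of either library, which allows up to 1615 CPM in the mutant and 327 CPM in the wildtype.

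Monocyte-like cells held 1 S100a8 UMI in each library, at 2.70 CPM among 107 mutant and 3.26 CPM among 107 wildtype cells. When cells with neutrophil markers were not set apart, an alternative chosen after seeing the data, these counts were still 1 and 1. The limit on markers of a second lineage still kept the S100a8-rich cells out of this class. The unchanged counts therefore add nothing on S100a8 in monocytes. NK-like cells held 0 S100a8 UMIs in the mutant, which allows up to 9.90 CPM, and 15 UMIs or 12.2 CPM in the wildtype. The free RNA held S100a8 at 32.9 CPM in the mutant and 67.3 CPM in the wildtype, and S100a9 at 2.53 CPM in the mutant and 58.6 CPM in the wildtype. The S100a8 levels of all 7 classes were below those free RNA levels. In wildtype NK-like cells (interval 6.82 to 20.1 CPM) S100a8 stood at 0.181 times its free RNA level, while free RNA made up 8.41% of their UMIs, and the source of these UMIs was not tested. S100a9 had 8.11 CPM at most in mutant and 9.18 CPM at most in wildtype classes, and there the low free RNA count of the mutant, 1 UMI, sets no bound.

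**Figure D2:**
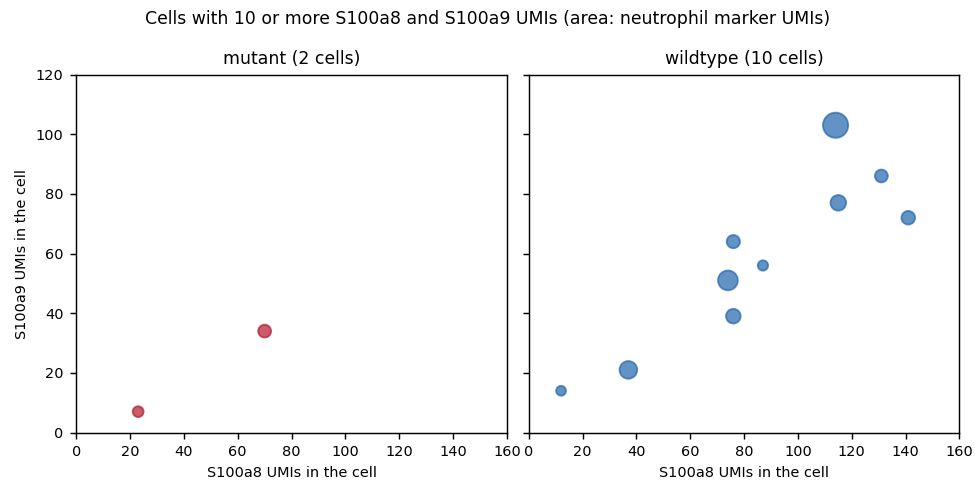
S100a9 UMIs (vertical) against S100a8 UMIs (horizontal) of each cell with at least 10 UMIs of the pair, with the area of a point set by its neutrophil marker UMIs. The mutant panel (left) has 2 cells and the wildtype panel (right) 10, up to 141 S100a8 UMIs in a cell.

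Smaller groups of cells gave further contrasts. Platelet cells held S100a10 at 3253 CPM (interval 2616 to 3999) among 22 mutant cells and 5496 CPM (3142 to 8926) among 2 wildtype cells, with 0 UMIs of S100a4, S100a11 and Lgals3 in either library. Basophil cells, 8 in the mutant and 9 in the wildtype, held Lgals3 at 1114 CPM in the mutant and 789 CPM in the wildtype, and Lgals1 at 1538 CPM (1030.3 to 2209) in the mutant and 395 CPM (159 to 813) in the wildtype. The Lgals1 intervals of basophils did not overlap, yet the UMIs came from so few cells that no genotype difference is read from them.

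The clearest pattern of these genes was between memory-like and naive-like T cells, within each library. T-like cells were split by summed UMIs of memory and naive markers. The memory marker list of CD8 T cells differed from that of Cd8-negative T cells, which included markers of activated and regulatory cells. The Cd8-negative class holds cells with a Cd4 UMI or with no coreceptor UMI, since Cd4 was seldom caught. A gene was measured where it had at least 50 UMIs over the classes compared, and called higher where memory-like cells were at least 2-fold above naive-like cells with an interval that left out 1. In CD8 T cells 4 of 6 measured members were called higher in the mutant, where 4.09% of the 2765 measured genes were, and 7 of 8 in the wildtype, where 3.90% of 3948 were. In Cd8-negative T cells all 6 measured members were called in the mutant, where 6.73% of 4086 genes were, and all 7 in the wildtype, where 7.92% of 4531 were. A member near 0 in naive-like cells passes the minimum through its memory-like counts, so these are not counts over all 10 members. The median of all measured genes was shifted by 0.10 on the log2 scale for CD8 T cells of the mutant, 0.12 for those of the wildtype, and 0.19 and 0.22 for Cd8-negative T cells of the mutant and the wildtype, and the ratios below are not corrected for it.

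S100a6 rose in memory-like cells of both lineages. In mutant CD8 T cells it had 693 CPM in 61 memory-like cells against 32.3 CPM in 461 naive-like cells, a ratio of 21.4 (interval 14.6 to 32.2). In wildtype CD8 T cells it had 661 CPM in 153 memory-like cells against 27.1 CPM in 617 naive-like cells, a ratio of 24.4 (17.6 to 34.6). The memory-like levels of the libraries lay close together, and their intervals overlapped. In Cd8-negative T cells the S100a6 ratio was 18.2 in the mutant, from 753 CPM in memory-like against 41.3 CPM in naive-like cells, and 27.9 in the wildtype, from 874 CPM against 31.3 CPM. The naive-like levels lie near the free RNA share, and subtracting free RNA raised the CD8 ratios to 89.7 in the mutant and 160 in the wildtype, and the Cd8-negative ratios to 54.9 in the mutant and 94.1 in the wildtype.

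S100a4 rose in wildtype cells, with 131 CPM in memory-like against 4.63 CPM in naive-like CD8 T cells, a ratio of 28.3 (12.9 to 73.3), and 201 CPM against 3.72 CPM in Cd8-negative T cells, a ratio of 54.2 (25.2 to 139). In the mutant S100a4 had under 50 UMIs and was not measured. Its ratio there was 9.84 (4.20 to 24.3) in CD8 T cells, from 16 memory-like and 10 naive-like UMIs, and 55.9 (23.6 to 161) in Cd8-negative T cells, from 41 and 6 UMIs. The intervals of the CD8 ratios of the libraries overlapped. Subtracting free RNA raised the S100a4 ratio of the wildtype to 96.8 in CD8 T cells and 374 in Cd8-negative T cells. Lgals3 was measured in wildtype CD8 T cells alone and called there, with 86.6 CPM in memory-like against 7.94 CPM in naive-like cells, a ratio of 10.9 (5.63 to 22.8). This call was lost after free RNA subtraction, at a ratio of 30.9, and after thinning to 800 UMIs, at 6.05. In both settings Lgals3 fell under the minimum of 50 UMIs. In the other 3 comparisons Lgals3 had under 50 UMIs, with ratios of 5.33 (2.33 to 12) in mutant CD8 T cells, 22.3 (10.9 to 49.3) in mutant Cd8-negative T cells and 7.18 (3.88 to 13.7) in wildtype Cd8-negative T cells.

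Lgals1 rose in all 4 comparisons. Its ratio was 7.40 (6.18 to 8.86) in mutant CD8 T cells, at 1552 CPM in memory-like and 210 CPM in naive-like cells, and 6.40 (5.61 to 7.30) in wildtype CD8 T cells, at 1456 CPM and 228 CPM. In Cd8-negative T cells it was 5.16 (4.44 to 5.99) in the mutant and 7.87 (7.0 to 8.86) in the wildtype, intervals that did not overlap, while memory-like cells of these classes had summed NK-like markers of 2168 CPM in the mutant and 4705 CPM in the wildtype, with 1 and 0 of the 11 NK-like markers at 0. Anxa2 rose in all 4 comparisons as well, with ratios of 13.7 in mutant and 13.8 in wildtype CD8 T cells, and of 13.8 in mutant and 15.5 in wildtype Cd8-negative T cells. With free RNA subtracted the wildtype Anxa2 ratios were 68.8 in CD8 T cells and 41.3 in Cd8-negative T cells. S100a13 was called in 3 of the 4, with ratios of 2.05 in mutant CD8 T cells and of 2.27 and 2.72 in mutant and wildtype Cd8-negative T cells. It stood at 1.71 in wildtype CD8 T cells, where it was not called. Its calls in the mutant lay near the limit of 2-fold and were lost under 4 of 8 alternatives in CD8 T cells and 2 of 9 in Cd8-negative T cells.

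S100a10 and S100a11 differed between the CD8 and the Cd8-negative comparisons. The memory-like classes of these comparisons were set by different marker lists, and the part of the lists in the difference was not tested. In Cd8-negative T cells S100a10 rose 4.38-fold (3.83 to 5.00) in the mutant and 3.33-fold (2.97 to 3.72) in the wildtype, while in CD8 T cells its ratio was 1.82 (1.5 to 2.20) in the mutant, not called, and 2.04 (1.81 to 2.31) in the wildtype, called. S100a11 rose 6.77-fold in the mutant and 5.11-fold in the wildtype in Cd8-negative T cells, against 1.84, not called, in mutant and 2.18 in wildtype CD8 T cells. The CD8 calls of S100a10 and S100a11 in the wildtype were each lost under 2 of 8 alternatives. The interval of each Cd8-negative ratio lay above that of the same library's CD8 ratio for both genes. Of memory-like cells, 7 of 61 mutant and 29 of 153 wildtype CD8 T cells lay within 1 UMI of the cut, and 19 of 97 mutant and 28 of 175 wildtype Cd8-negative T cells did. The comparison limited to cells with a Cd4 UMI, chosen after seeing the data, had 19 mutant and 35 wildtype memory-like cells, and gave S100a10 ratios of 5.22 in the mutant and 3.63 in the wildtype. For S100a6 it gave 25.1 (14.6 to 46.0) in the wildtype, and 10.6 (5.75 to 19.5) in the mutant from 26 memory-like and 22 naive-like UMIs, under the minimum of 50.

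**Figure D3:**
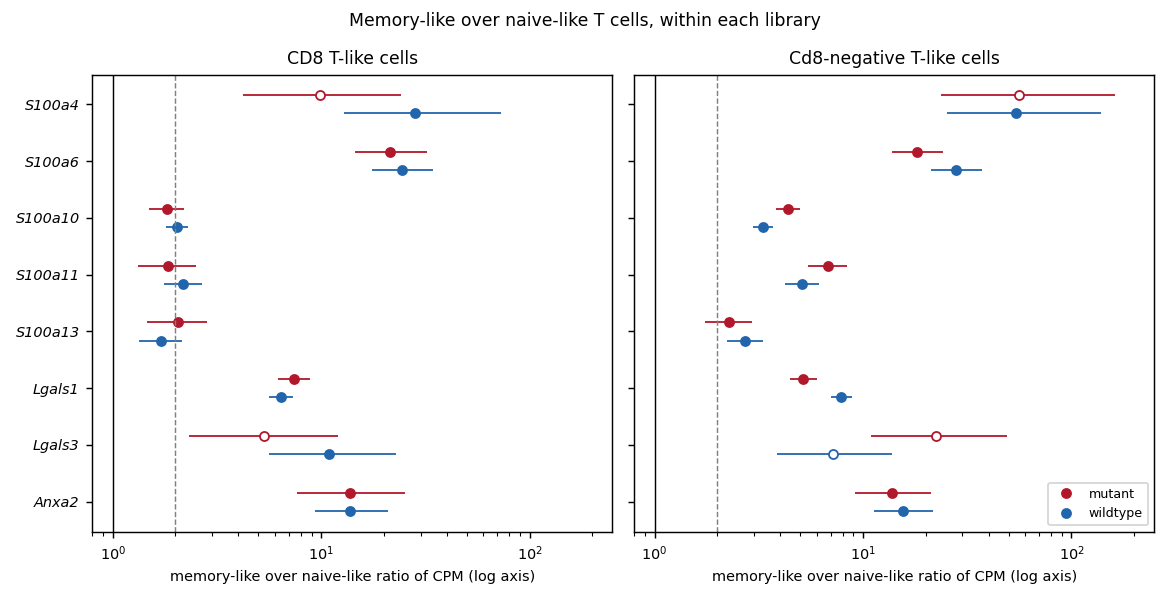
Memory-like over naive-like ratio of each member, on a log axis, in CD8 T cells (left panel) and Cd8-negative T cells (right panel), with 95% intervals, mutant and wildtype. Filled circles are measured genes, open circles have under 50 UMIs, and the dashed line is a ratio of 2. S100a8 and S100a9 are not drawn. Lgals1 and Anxa2 lie above 5 in all 4 comparisons.

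Genes known to work with the members were read from a list of 14 binding partners and receptors, of which 9 were measured in each of the 4 comparisons. It counts the annexin and S100 partner Ahnak, a large scaffold protein, the filament gene Vim, the galectin-1 receptor gene Cd7 and the sialoprotein gene Spn. Ahnak, Vim and Cd7 were called higher in memory-like cells in all 4. Spn was called in CD8 T cells, at 2.05 in the mutant and 2.55 in the wildtype, and not in Cd8-negative T cells. Vim had ratios of 2.32 in mutant and 2.21 in wildtype CD8 T cells, and of 2.67 in mutant and 2.79 in wildtype Cd8-negative T cells. Ahnak had ratios of 4.46 in mutant and 5.58 in wildtype CD8 T cells and of 9.46 in mutant and 17.4 in wildtype Cd8-negative T cells. Cd7 had 2.82 in mutant and 2.89 in wildtype CD8 T cells, and 4.45 in mutant and 4.54 in wildtype Cd8-negative T cells. Of the 11 other annexin genes 4 were measured. Anxa6 was called in 3 of the 4 comparisons, with 2.01 in wildtype CD8 T cells and 2.27 and 2.12 in mutant and wildtype Cd8-negative T cells, and Anxa11 with 2.21 in wildtype Cd8-negative T cells. Of the 9 genes listed with the other galectin genes up to 3 were measured. Lgals3bp alone was called, at 2.96 in wildtype Cd8-negative T cells, and it encodes a galectin-binding protein and not a galectin. None of the 11 genes listed with the other S100 genes was measured.

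Between the genotypes, 5 of the members' levels were called higher in the mutant and none lower over the 7 classes. A call needed a ratio of mutant over wildtype of at least 1.5-fold up or down, an interval that left out 1 and at least 50 UMIs over both libraries. Of the 5, 3 lay in B-like cells, where 8 members were measured, and where 2.37% of 6666 genes were called higher and 1.67% lower. In monocyte-like cells 1 of 8 measured members was called higher, against 4.83% higher and 4.32% lower of 1967 genes, and in memory-like Cd8-negative T cells 1 of 8 was, against 2.97% higher and 2.91% lower of 1888 genes. No member was called in naive-like CD8 T cells (6 measured; 2.13% of genes higher, 1.13% lower), memory-like CD8 T cells (8 measured; 3.12% higher, 1.83% lower), naive-like Cd8-negative T cells (6 measured; 1.81% higher, 1.24% lower) or NK-like cells (8 measured; 1.49% higher, 2.62% lower). The median log2 ratio of the measured members was 0.53 in B-like cells against 0.03 over all measured genes there, and 0.32 in monocyte-like cells against -0.03.

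In B-like cells S100a6 had 2642 UMIs or 1099 CPM in 1208 mutant cells, against 1015 UMIs or 491 CPM in 1059 wildtype cells, a ratio of 2.24 (interval 2.08 to 2.41). S100a4 had 54.1 CPM in the mutant against 22.7 CPM in the wildtype, a ratio of 2.38 (1.69 to 3.40). Lgals3 had 61.5 CPM in the mutant against 39.2 CPM in the wildtype, a ratio of 1.57 (1.19 to 2.09). The intervals of the levels did not overlap between the libraries for any of the 3 genes, and all 3 were called. The ratio was 1.49 for Anxa2, 1.40 for Lgals1, 1.29 for S100a11, 1.20 for S100a13 and 1.10 for S100a10, none of which was called. The call of S100a4 was lost when each cell was thinned to 800 UMIs, at a ratio of 2.63. The call of Lgals3 was lost with a minimum of 1500 UMIs per cell, and when each cell was thinned to 800 UMIs its ratio was 1.05.

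A small group of B-like cells carried most of the S100a6. In the mutant 80 of 1208 B-like cells (6.62%, interval 5.29% to 8.17%) had at least 12 S100a6 UMIs, against 31 of 1059 (2.93%, 2.0% to 4.13%) in the wildtype, a ratio of shares of 2.26 (1.48 to 3.54). This bound was set after the counts were seen. The 80 mutant cells held 83.7% of the S100a6 UMIs of mutant B-like cells and the 31 wildtype cells 61.9% of those of wildtype B-like cells. The highest mutant cell had 84 S100a6 UMIs and the highest wildtype cell 37. For comparison, no naive-like CD8 T cell had more than 2 S100a6 UMIs in the mutant or more than 5 in the wildtype. The cells with at least 12 UMIs were deep, with medians of 5012 UMIs (mutant) and 4941 UMIs (wildtype), against medians of 1514 UMIs (mutant) and 1541 UMIs (wildtype) for B-like cells with no S100a6 UMI. With every B-like cell thinned to 800 UMIs, 65 mutant cells (5.38%) and 30 wildtype cells (2.83%) had at least 3 S100a6 UMIs, a ratio of 1.90 (1.21 to 3.03).

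**Figure D4:**
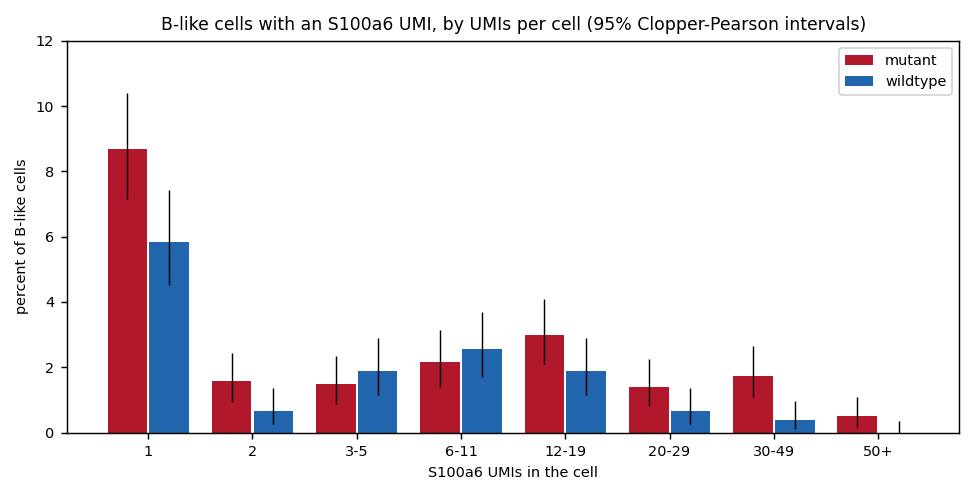
Percent of B-like cells by their S100a6 UMIs, for cells with at least 1, in the mutant (left bar of each pair) and the wildtype library, with 95% Clopper-Pearson intervals. The mutant has 80 of 1208 cells with at least 12 UMIs and the wildtype 31 of 1059.

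B-like cells were also split by genes that are no members, a choice made after seeing the data. A UMI of Zbtb32 or Bhlhe41, genes of transcription factors known from memory and B-1 B cells, was found in 140 of 1208 mutant and 82 of 1059 wildtype B-like cells. In cells with either gene S100a6 stood at 3559 CPM in the mutant against 2134 CPM in the wildtype, a ratio of 1.67 (1.53 to 1.82). In cells with neither it stood at 354 CPM in the mutant against 167 CPM in the wildtype, a ratio of 2.12 (1.84 to 2.44). S100a6 was thus called in both parts. The part with neither still held S100a6-rich cells, with up to 39 S100a6 UMIs in a mutant cell and 24 in a wildtype cell. Of the cells with at least 12, 57 of 80 in the mutant and 25 of 31 in the wildtype had either gene. The rest of them had neither, and their share in the ratio of 2.12 was not tested. S100a4 had a ratio of 1.95 (1.29 to 3.01), called, in cells with either gene, and of 1.81 (0.962 to 3.55) in cells with neither, where it had under 50 UMIs. Lgals3 had a ratio of 2.30 (1.44 to 3.82), called, in cells with either gene, and of 0.985 (0.676 to 1.44) in cells with neither. Of 4 Leiden clusters made up mostly of B-like cells, the largest held 914 mutant and 922 wildtype cells and the smallest 137 mutant and 45 wildtype cells. The part of these unequal shares in the ratios over all B-like cells was not tested.

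The cells with at least 12 S100a6 UMIs and the rest are cut on a member, so their values are a description only. B-like cells under 12 are capped on S100a6, and stood at 218 CPM of it in the mutant and 203 CPM in the wildtype. Inside the same library the cells with at least 12 UMIs had 19.3 times the S100a4 of the other B-like cells in the mutant and 9.59 times in the wildtype, 11.8 times the Anxa2 in the mutant and 6.62 times in the wildtype, and 6.28 times the Lgals1 in the mutant and 3.99 times in the wildtype. For S100a10, S100a11 and S100a13 the ratios lay between 1.93 and 2.22. B-like markers summed to 7410.1 CPM in these cells of the mutant and 7651 CPM in the wildtype, against 10212 CPM in the other B-like cells of the mutant and 9582 CPM in those of the wildtype. Of the high cells 71.2% in the mutant and 80.6% in the wildtype had a UMI of Zbtb32 or Bhlhe41. Fcer2a, the CD23 gene of follicular B cells, was at 0.0465 of its level in the other B-like cells in the mutant and at 0.221 in the wildtype.

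Monocyte-like cells numbered 107 in each library. S100a11 was called in them, at 624 CPM in the mutant against 368 CPM in the wildtype, a ratio of 1.69 (1.35 to 2.14). The classes within them differed in share, with 50 classical-like and 57 non-classical-like cells in the mutant, against 25 and 79 in the wildtype. S100a11 was 2.85-fold higher (1.97 to 4.20) in non-classical-like cells of the mutant, at 678 CPM against 238 CPM, and in classical-like cells its ratio was 1.01 (0.743 to 1.37), at 591 CPM in the mutant against 587 CPM in the wildtype. S100a10 was 224 CPM in mutant against 113 CPM in wildtype non-classical-like cells, a ratio of 1.98 (1.10 to 3.65), and 701 CPM against 975 CPM in classical-like cells, a ratio of 0.718 (0.559 to 0.926). Anxa2 was 1.65-fold higher (1.19 to 2.30) in non-classical-like cells of the mutant, and its ratio in classical-like cells was 1.07. The division into these classes was an alternative chosen after seeing the data. Platelet markers summed to 1178 CPM in the monocyte-like cells of the mutant and 476 CPM in those of the wildtype, with 1 of 9 markers at 0 in each, and neutrophil markers to 51.3 CPM and 71.7 CPM, with 9 of 12 at 0 in each, and their part in these ratios was not tested. S100a11 had 0 UMIs in platelet cells of either library, which allows up to 108 CPM in the mutant and 1031 CPM in the wildtype. S100a10 stood at 3253 CPM in platelet cells of the mutant and 5496 CPM in those of the wildtype. With classes taken from Leiden clusters the S100a11 ratio was 1.15 and the call was lost.

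In memory-like Cd8-negative T cells Lgals3 was called, at 137 CPM in the mutant against 68.6 CPM in the wildtype, a ratio of 1.99 (1.16 to 3.43) that rests on 30 UMIs in each library. The call was lost with Leiden clusters, at 1.39, and when cells were thinned to 800 UMIs, at 4.51. Lgals1 was at 1323 CPM in the mutant against 1855 CPM in the wildtype, a ratio of 0.713 (0.622 to 0.817), and Anxa2 at 301 CPM against 412 CPM, a ratio of 0.731 (0.543 to 0.975), neither called. The summed NK-like markers given above, 2168 CPM in the mutant and 4705 CPM in the wildtype, were lower in the mutant too, and their part in these ratios was not tested. Among cells with at most 1 NK-like marker UMI, 51 in the mutant and 56 in the wildtype, the ratio was 0.834 (0.669 to 1.04) for Lgals1 and 0.907 (0.517 to 1.58) for Anxa2, while that of S100a4 was 0.591 (0.363 to 0.947). That of Lgals3 was 2.16 (0.966 to 5.17), from 20 mutant and 10 wildtype UMIs, with an interval that held 1. This alternative was chosen after seeing the data.

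**Figure D5:**
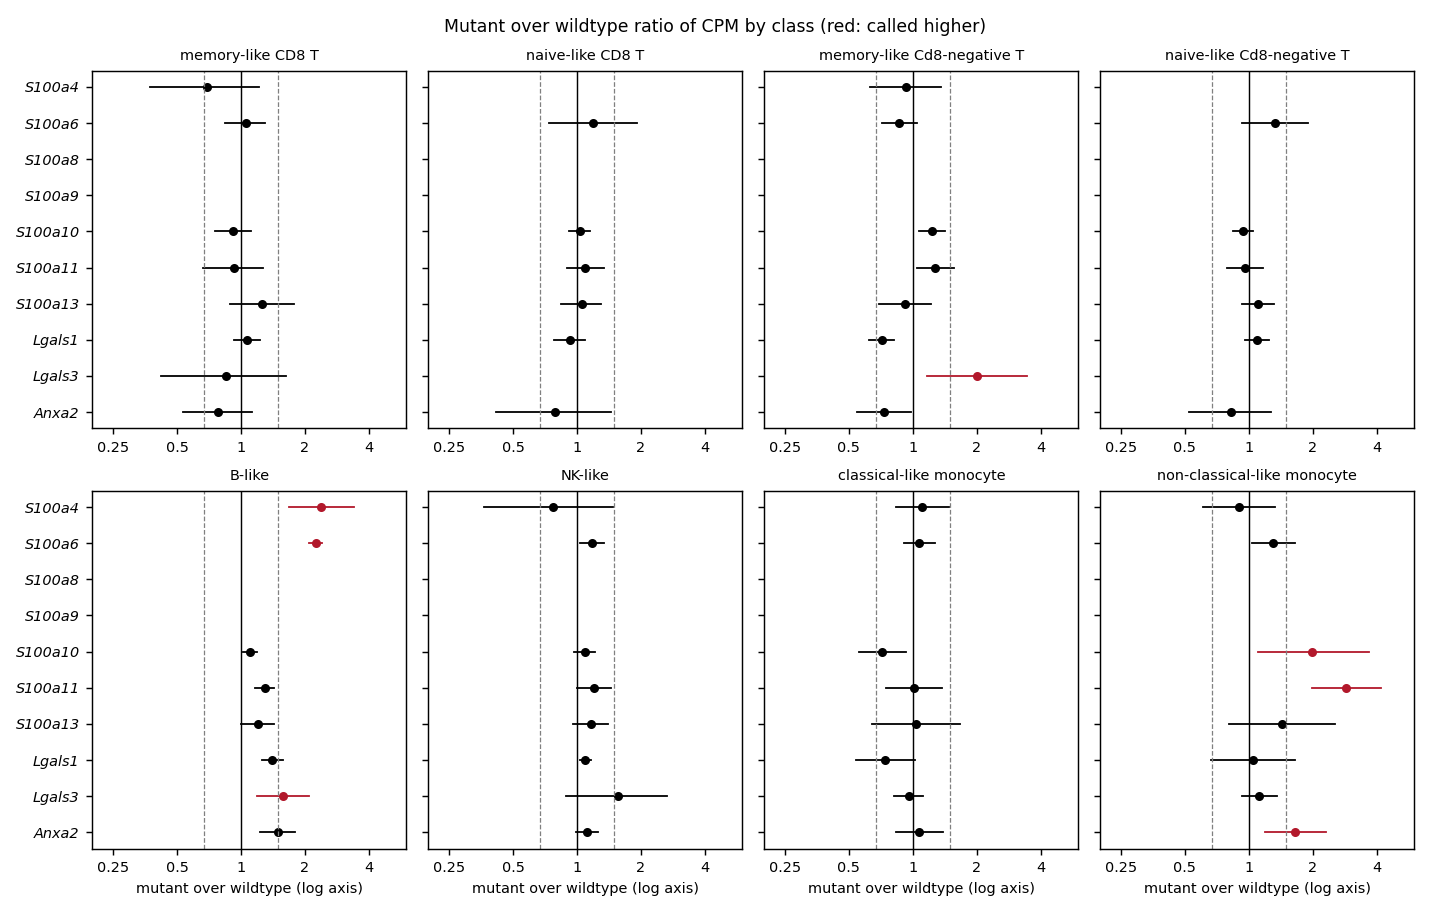
Mutant over wildtype ratio of each measured member on a log axis with 95% intervals, in 6 cell classes and in classical-like and non-classical-like monocytes, with called genes in red and dashed lines at the fold limits. In B-like cells S100a6 lies at 2.24, S100a4 at 2.38 and Lgals3 at 1.57, and in non-classical-like monocytes S100a11 lies at 2.85.

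Among the listed relatives of the members, few were called between genotypes. Over the 7 classes 1.13% to 4.83% of all measured genes were called in a given direction, and the counts below are to be set against those shares. Lgals9, a galectin with a pair of sugar-binding domains, was higher in naive-like CD8 T cells, at 78.5 CPM in the mutant against 45.0 CPM in the wildtype, a ratio of 1.75 (1.25 to 2.44), where 2.13% of all measured genes were higher. Lgals3bp, the gene of a galectin-binding protein, was lower in mutant naive-like Cd8-negative T cells, with a ratio of 0.504, where 1.24% were lower. In monocyte-like cells, with 4.83% of genes higher and 4.32% lower, 2 of 5 measured annexins were higher, Anxa1 with a ratio of 1.63 (1.24 to 2.15) and Anxa3 with 1.99, and the partner gene Myh9, a non-muscle myosin, was lower with 0.595. In memory-like CD8 T cells, with 3.12% higher and 1.83% lower, Cacybp, which encodes an S100a6 partner, was higher with 1.64 and Myh9 lower with 0.558. Of the 11 genes listed with the other S100 genes, S100pbp was measured in B-like cells and S100a1 in NK-like cells, and neither was called. S100pbp encodes an S100-binding protein and not an S100 protein.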

How the data were processed

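The deposited values are raw UMI counts per gene and barcode, from 10x Chromium 3' v2 libraries, made by the authors with Cell Ranger 2.1.1 on mm10, per the submitters' processing notes. The matrices held 27998 genes and 737280 barcodes, so cells were called here (minimums of 800 UMIs and 200 genes, at most 10% mitochondrial UMIs). There are 0 unused sample columns. How reads of near-identical genes were counted is not given in the sources used here.

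Cells were classed by marker UMIs: the leading lineage needed 3 UMIs, with the next at no more than 1 UMI or 25% of it. Cells with markers of 2 lineages were left out (368 mutant, 342 wildtype), and a doublet caller was run as an alternative only. Too few Cd4 UMIs were caught for the planned CD4 class, so Cd8-negative T cells replaced it. Counts were summed per class and library and expressed as CPM. Python 3.11.15, numpy 2.4.6, scipy 1.17.1, pandas 2.3.3 and, for clustering and Scrublet, scanpy 1.11.5 were used. Intervals are 95% exact Poisson, Clopper-Pearson or conditional binomial ones and cover counting error only, and a count of 0 is bounded by 3 counts. The calling steps were tested on simulated Poisson counts drawn at the class totals. These counts do not clump by cell, as S100a6 UMIs did in B-like cells, so the test does not cover such clumping. All 10 members were reported in every class, list genes where called, and the 5 genes most alike for S100a4, Lgals1, S100a8 and S100a10. The members, the 4 lists (44 of 45 genes found) and the classes were chosen with earlier results of these data known. Alternatives covered cell minimums, marker rules, thinning, doublets, free RNA, scaling, clustering and filters.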

Additional observations from a re-analysis of the deposited data

Results flagged for a closer look

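For 3 members the mutant over wildtype ratio lay above 1 in some classes and below 1 in others, with intervals that left out 1 on both sides. The differences between classes were not tested. The S100a10 ratio was 1.23 in memory-like Cd8-negative T cells, 1.10 in B-like cells and 1.98 in non-classical-like monocytes, against 0.718 in classical-like monocytes. The Lgals1 ratio was 1.40 in B-like cells and 1.09 in NK-like cells, against 0.713 in memory-like Cd8-negative T cells. The Anxa2 ratio was 1.49 in B-like cells, 1.44 in monocyte-like cells and 1.65 in non-classical-like monocytes, against 0.731 in memory-like Cd8-negative T cells. With classes from Leiden clusters the ratios in memory-like Cd8-negative T cells were 1.01 for S100a10, 1.0 for Lgals1 and 1.07 for Anxa2. The cluster given this name had 293 cells, of which 31.4% were of this class by markers, so it is largely another set of cells. NK-like markers summed in that class, as classed by markers, to 2168 CPM in the mutant and 4705 CPM in the wildtype, and their part was not tested.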

How the results depend on the processing

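The 5 higher calls between genotypes became 2 when cells were thinned to 800 UMIs, and 2 with B-like cells under 12 S100a6 UMIs, chosen after seeing the data, which takes out the cells richest in S100a6 and so lowers its ratio by construction. The lower calls, 0 as reported, became 3 with Leiden clusters (S100a4 in NK-like cells at 0.526 among them) and 2 with a filter of 20 UMIs (S100a8 and S100a9 in B-like cells). After thinning to 800 UMIs, which leaves fewer UMIs of each gene, 2 members were called higher in memory-like CD8 T cells of the mutant, against 4 as reported, and 3 in those of the wildtype, against 7. Without Zbtb32 or Bhlhe41 cells the Lgals3 ratio in B-like cells was 0.985, and the cause was not tested. The S100a6 ratio in B-like cells stayed between 2.05 and 2.25 under 8 alternatives of filtering, scaling and classing. It was 1.67 with and 2.12 without Zbtb32 or Bhlhe41, called in each, and the part without still held S100a6-rich cells. Subtracting free RNA also called Lgals1 (1.73) and Anxa2 (1.82) in B-like cells. Of 721 single ratios under alternatives, 646 stayed within the counting interval of the reported ratio, 74 moved outside it and 1 reversed. Reversals were counted for called ratios only. Uncalled ratios could cross 1 too, as Anxa2 in naive-like CD8 T cells did, from 0.786 to 2.96 after free RNA subtraction. Some of the 646 could not move, such as ratios left as they were when the filter on low counts was dropped. Leaving out cells with a Scrublet score above 0.2 removed 63 mutant and 139 wildtype cells. No paired analysis was possible because there is 1 library per genotype. Depth limits S100a4 and Lgals3 in T cells and S100a8 and S100a9 in all 7 classes.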
